A study of Homo sapiens with 2 samples.

Results

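Proliferation-rich and proliferation-poor oxygenated spots were compared within 2 sections of MDA-MB-231 tumors. Each spot is a small region of the section whose RNA was captured together, so it can hold several cells and is neither a cell nor a replicate. Of 5382 spots over tissue, 4196 had at least 5000 UMIs (unique molecular identifiers, the counted RNA molecules). For each of these spots a hypoxia sum was taken, the UMIs of NDRG1, BNIP3, CA9, SLC2A1, P4HA1 and ADM per 10000 UMIs. The 50% of spots with the lower hypoxia sum in each tumor, 2098 in all, are called oxygenated here. Oxygen itself was not measured, and the word stands only for few transcripts of these 6 genes. A proliferation sum was then taken from 16 cell-cycle genes per 10000 UMIs, averaged over each spot and its adjacent spots with at least 5000 UMIs. Of those genes, 9 act in DNA replication (MCM2, MCM3, MCM4, MCM5, MCM6, MCM7, PCNA, TYMS and RRM2) and 7 in mitosis (MKI67, TOP2A, CDK1, CCNB1, CENPF, TPX2 and UBE2C). The 25% of oxygenated spots with the highest proliferation sum (524 spots, called proliferation-rich) were set against the 25% with the lowest (524 spots, proliferation-poor). The compared spots are 1048 of the 2098 oxygenated spots, with 279 of each kind in tumor 1 and 245 of each kind in tumor 2.

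MDA-MB-231 is an established human line from a triple-negative breast cancer, and the implanted cells carried a fluorescent reporter that marks cells with a history of hypoxia. Both tumors (labelled Tumor-897, tumor 1 here, and Tumor-899, tumor 2) belong to the same group: they were untreated, were frozen fresh 18 days after implantation and were cut into 10 µm sections. The fluorescence images were not used here, and the labels give neither the strain nor the age of the mice, nor do they say that the tumors grew in separate animals, so the spread between sections may be technical. All comparisons are therefore within each section, between sums of spots, with the tumors as replicates (n = 2). The sections held 58661164 UMIs in 2536 spots (tumor 1) and 39736292 UMIs in 2846 spots (tumor 2). The 4 sums compared held between 4449049 and 8433605 UMIs. The matrices shared 1627 barcodes, which name positions on the slide and not cells. Reads were assigned to human genes, so mouse RNA that aligns to them cannot be told apart from tumor RNA.

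Dividing cells build the MCM helicase onto replication origins in G1, copy DNA in S phase with polymerases, PCNA and enzymes that supply nucleotides, and separate chromosomes in mitosis with kinesins, the spindle and kinetochores. Transcripts of the replication genes depend largely on E2F factors. Those of the mitosis genes peak later and often carry a CHR promoter element bound by the DREAM and MuvB complexes. In tumors, dividing cells usually lie near blood supply, and cells under low oxygen induce transcripts for glucose uptake, glycolysis and vessel growth through HIF. In a spot, fewer dividing cells and less cell-cycle RNA per cell cannot be told apart.

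The proliferation sum chose the spots, so the values of its genes only describe the choice. In tumor 1, the lowest proliferation sum among rich spots was 26.4 per 10000 UMIs, and the highest among poor spots was 22.2. In tumor 2 these limits were 29.6 and 25.5. The first spots outside the limits were nearly equal to those inside, 26.3789 against 26.3798 at the upper limit in tumor 1, since the sum is continuous. MKI67, the proliferation antigen, stood at 110 UMIs per 1000000 (CPM) in poor and 152 in rich spots of tumor 1, and at 116 and 166 in tumor 2. TOP2A, the topoisomerase that untangles replicated DNA, stood at 148 and 218 CPM in tumor 1 and at 136 and 185 in tumor 2. MCM5, a helicase subunit, went from 48.0 to 55.8 CPM and from 49.6 to 64.6. RRM2, the regulated subunit of ribonucleotide reductase, went from 173 to 251 CPM and from 191 to 278. All 4 markers were thus present in poor spots as well, and the zones differ in degree. CPM here and below are scaled between sums with edgeR's TMM factors unless stated otherwise.

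**Figure D1:**
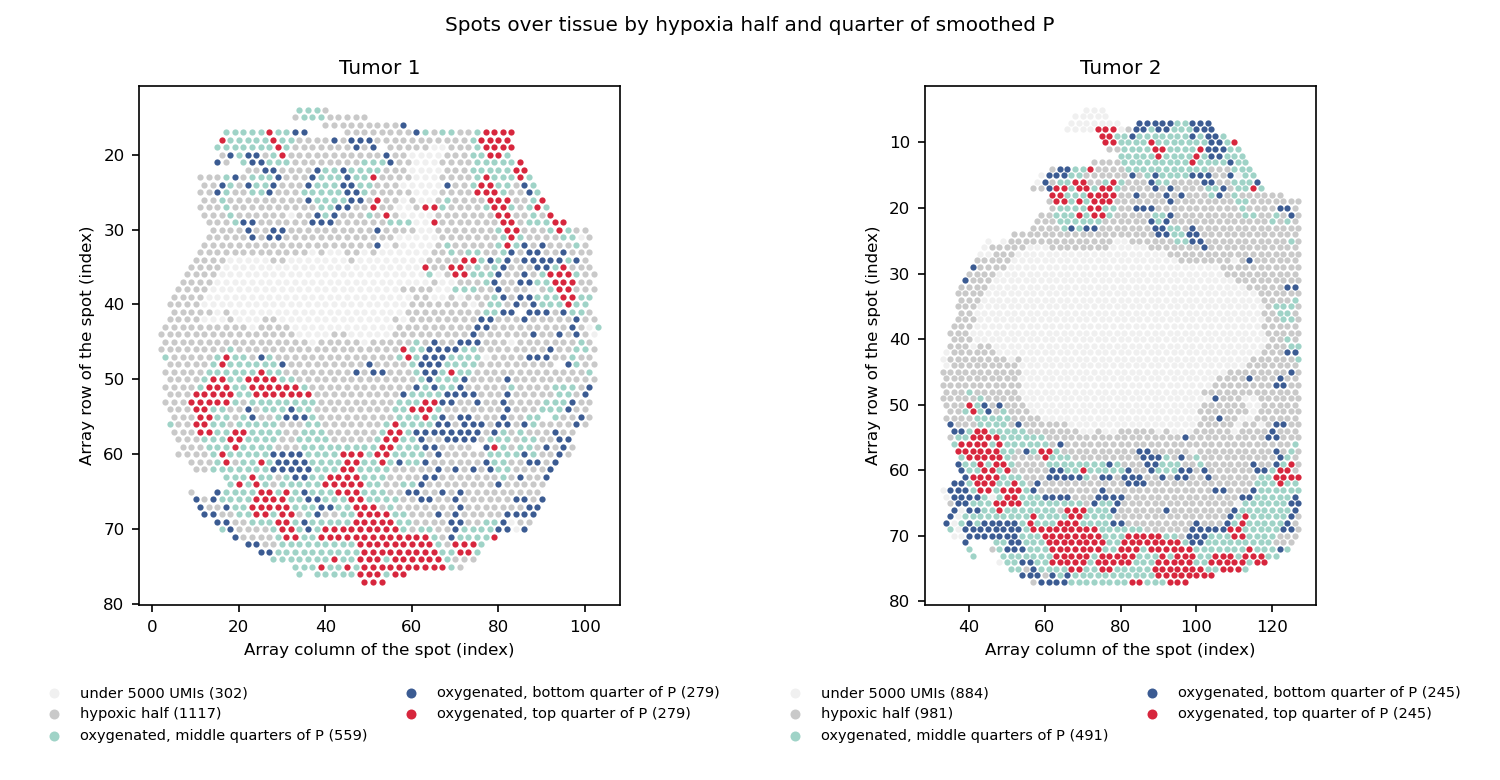
Array positions of the spots of both sections, coloured by zone: proliferation-rich and proliferation-poor oxygenated spots, other oxygenated spots, hypoxic spots and spots under 5000 UMIs (P in the legend is the proliferation sum). Rich spots lie in a few large patches and poor spots in many small ones, which often touch hypoxic spots.

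Rich spots lay together more than poor spots did. In tumor 1, the 279 rich spots formed 34 connected patches with 100 spots in the largest, and the 279 poor spots formed 74 patches with 24 in the largest. In tumor 2, the rich spots formed 20 patches (largest 115 spots) and the poor spots 61 (largest 27). Since the proliferation sum was averaged over neighbours, some of this clustering is built into the choice. Without that averaging, the sum of an oxygenated spot and the mean of its neighbours correlated with r = 0.456 over 1117 spots in tumor 1 and 0.400 over 981 spots in tumor 2. These spots share a library and, in part, the same neighbours.

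The zones also differed in other measures of the spots. Poor spots lay closer to hypoxic tissue: on average 44.0% of their adjacent spots were hypoxic in tumor 1 and 32.4% in tumor 2, against 6.68% and 3.37% for rich spots. The mean hypoxia sum was 10.9 per 10000 in poor and 6.22 in rich spots of tumor 1, and 7.66 and 5.10 in tumor 2. Averaged over each spot and its neighbours it was 14.4 and 7.23, then 9.70 and 5.44. Hypoxic neighbours entered the averaged proliferation sum. Their own proliferation sums were lower, with means of 19.4 and 19.6 in hypoxic against 24.7 and 27.8 in oxygenated spots. Part of the difference in surroundings is thus built into the choice. With spots chosen by their own proliferation sum alone, the averaged hypoxia sum was 12.4 and 8.74 in tumor 1 and 8.48 and 6.36 in tumor 2. Spots under 5000 UMIs were a median of 7 array steps from poor and 12 from rich spots in tumor 1, and 5 and 8 in tumor 2. Median steps to the tissue border differed less, 8 against 6 and 7 against 6. Depth was slightly higher in rich spots, with medians of 28995 against 26999 UMIs in tumor 1 and 20760 against 19051 in tumor 2. Marker genes of other cell types held 0.300% of UMIs in poor and 0.233% in rich spots of tumor 1, and 0.556% and 0.321% in tumor 2. Their part in the results below was not tested other than by the matched and reduced comparisons given beside them.

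Replication and mitosis genes were then tested on spots they had not chosen. Spots were ranked by the 9 replication genes alone, and the mitosis genes were read out, and the reverse. With replication genes choosing the spots, 5 of 7 mitosis genes were higher in the rich spots (edgeR quasi-likelihood test, Benjamini-Hochberg adjusted p under 0.05), where 1.75% of all genes tested were called higher. MKI67 stood at 117 and 144 CPM in tumor 1 and at 128 and 157 in tumor 2. Its rich spots were above the poor spots in both tumors, without overlap, with a log2 difference of 0.29 ± 0.06 (SE, n = 2 tumors, edgeR adjusted p = 0.000997). CDK1, TOP2A, TPX2 and CCNB1 were higher too, with log2 differences of 0.28, 0.28, 0.22 and 0.19. CENPF (0.18, edgeR adjusted p = 0.0846) and UBE2C (0.11, edgeR adjusted p = 0.230) did not pass.

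With mitosis genes choosing the spots, 6 of 9 replication genes were higher, against 2.4% of all genes tested. RRM2 stood at 183 and 246 CPM in tumor 1 and at 206 and 268 in tumor 2, without overlap. Its log2 difference was 0.41 ± 0.05 (SE, n = 2, edgeR adjusted p = 5.87e-13). TYMS (thymidylate synthase), MCM6, MCM4, PCNA (the polymerase clamp) and MCM3 were also higher, with log2 differences of 0.31, 0.27, 0.26, 0.24 and 0.17. MCM2, MCM5 and MCM7 had values of 0.16, 0.14 and 0.12 and did not pass. No held-out gene had a value below 0. The zones chosen here differed in hypoxia as well. By replication genes, the hypoxia sum averaged over spot and neighbours was 14.8 in poor and 6.87 in rich spots of tumor 1, and 9.88 and 5.34 in tumor 2. By mitosis genes it was 13.5 and 8.20, then 9.24 and 5.87. The held-out genes were not tested on spots matched for hypoxia. At single spots the replication and mitosis sums correlated weakly (r = 0.249 and 0.183), and after averaging over neighbours r was 0.604 and 0.540. Of the 279 spots highest by replication genes in tumor 1, 135 (48.4%) were also among the 279 highest by mitosis genes. In tumor 2 this was 113 of 245 (46.1%).

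**Figure D2:**
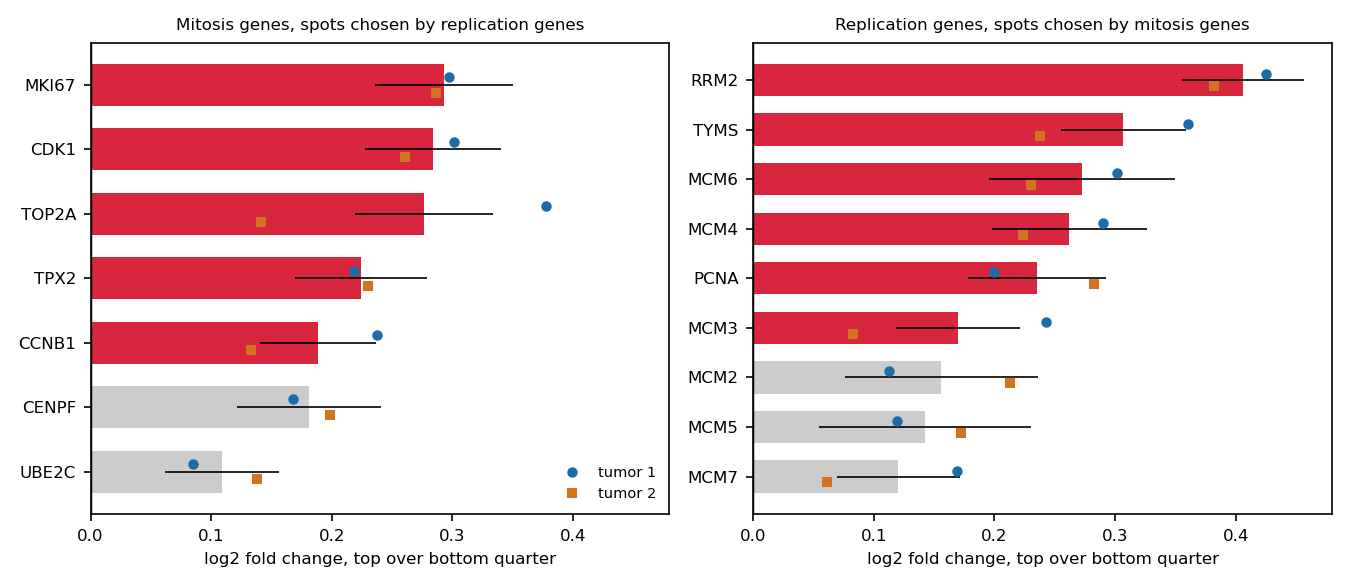
Log2 difference of rich over poor oxygenated spots for the 9 replication genes (spots chosen by the mitosis genes) and the 7 mitosis genes (spots chosen by the replication genes). Bars are edgeR estimates with their standard errors, points are the single tumors, and colour marks adjusted p under 0.05. All 16 bars lie above 0, from 0.11 (UBE2C) to 0.41 (RRM2).

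Outside the 22 genes that chose the spots, 12972 genes were tested between rich and poor oxygenated spots. Of these, 397 (3.06%) were higher and 453 (3.49%) lower in rich spots, 6.55% in all (edgeR quasi-likelihood test with the tumor as a block, Benjamini-Hochberg adjusted p under 0.05). The 3.06% and 3.49% are the shares to set beside the list counts below. The differences were small: the median log2 difference was 0.27 among genes called higher and -0.37 among genes called lower. Only 18 genes were at least 1.5-fold higher, and 116 were at least 1.5-fold lower. With library size alone in place of TMM, 534 were higher (4.12%) and 377 lower (2.91%), so that 58.6% of calls were higher in place of 46.7%. The median of all genes then moved by 0.02 on the log2 scale.

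These calls rest on a fit with 1 residual degree of freedom, in which edgeR set the spread of every gene from the trend over all genes. DESeq2 called 4 genes higher (TUBA1B, TUBB4B, HMGB1 and HSPA8) and 33 lower, and edgeR without the tumor block called 0 either way (416 higher and 473 lower at an unadjusted p under 0.05). Matching rich and poor spots on the hypoxia sum of their surroundings left 78 spots a zone in tumor 1 and 113 in tumor 2. It left 10 genes called higher (0.0889% of 11243 tested) and 55 called lower (0.489%). Of these, 7 and 48 were also called in the full comparison. The matched sums were smaller, with 2326081 and 2355898 UMIs in poor and rich spots of tumor 1 and 1577412 and 2451618 in tumor 2. Without matching, thinning each spot to 5000 UMIs left 38 genes higher and 146 lower. Both sums and the zones were drawn anew from the thinned counts, so the spots compared there are not the same. How many calls were lost through fewer UMIs was not tested. In tumor 2 the matched poor spots were shallower than the rich ones, with medians of 12461 against 20633 UMIs, and held more markers of other cells, 0.806% against 0.323% of UMIs, a wider gap in both than before matching. In tumor 1 those marker shares were 0.255% and 0.217%. The hypoxia sum of the matched spots themselves was still unequal in tumor 1, 9.55 in poor and 8.17 in rich spots. In tumor 2 it was 6.15 and 6.18. The same matching without the 10% of spots richest in such markers left 74 and 84 spots a zone, with 0.367% and 0.295% in tumor 2 and medians of 17783 and 22481 UMIs. It called 22 genes higher (0.201% of 10947) and 34 lower (0.311%). The spots' own hypoxia sum was then 9.13 in poor and 8.16 in rich spots of tumor 1, and 6.21 and 6.31 in tumor 2. Below, the first is called matched surroundings and the second the reduced match, whose calls are given where they differ. With the spots chosen by their neighbours' proliferation alone, their own counts unused, 294 genes were higher (2.26%) and 388 lower (2.98%).

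Genes of the kinetochore and spindle, which hold and move chromosomes in mitosis, were higher in rich spots in 25 of 40 cases and lower in 0, with a median log2 difference of 0.33 (0.37 in tumor 1, 0.28 in tumor 2) where the median of all genes was -0.00. SPC24 (ENSG00000161888, chromosome 19, 11145493 to 11155782, GRCh38.p14), a subunit of the Ndc80 complex that binds microtubules, stood at 17.1 and 29.9 CPM in tumor 1 and at 27.3 and 38.5 in tumor 2. Its rich spots were higher in both tumors without overlap, 1.58-fold (log2 0.66 ± 0.12, SE, n = 2, edgeR adjusted p = 7.11e-06). NDC80 (ENSG00000080986, chromosome 18, 2571557 to 2616635), which gives that complex its name, went from 25.6 to 43.7 CPM and from 35.2 to 39.8 (log2 0.51, edgeR adjusted p = 9.95e-05). Most of its difference was in tumor 1 (0.77 against 0.18). TACC3, a spindle protein that crosslinks microtubules, went from 52.9 to 75.6 CPM and from 46.6 to 67.4, much alike in both tumors (log2 0.51 and 0.53, edgeR adjusted p = 4.73e-08). KNL1, the kinetochore scaffold on which checkpoint proteins assemble, had a log2 difference of 0.52, and the kinesins KIF18B, KIF20B and KIF11 had 0.45, 0.44 and 0.42. PRC1, which bundles microtubules between separating chromosomes, had 0.39. With matched surroundings the median of this list stayed at 0.34, but only 2 of its 40 genes passed, KIF20B (0.65) and NUSAP1 (0.47). SPC24 had 0.26 there and did not pass. In the reduced match CKAP2 and TACC3 passed as well, 4 of 39.

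Promoter sequences are shown for 4 genes of the spindle and origin lists, whose called members were all higher, to set them beside the elements for which cell-cycle promoters are known. Each is printed from 250 bases before to 50 bases after the start site (RefSeq, GRCh38.p14), 5′ to 3′ on the strand of the gene. Capitals mark matches on either strand to TTTGAA (the CHR element), to the E2F motifs TTTGGCGC, TTTCCCGC and TTCCCGCC, and to CCAAT, which NF-Y binds (ATTGG on the other strand). SPC24 (chr19:11155733-11156032, minus strand) and CDC45 (chr22:19479670-19479969, plus strand) had the largest differences among called replication, spindle and kinase genes with a sequence in the table. The CDC45 window lies inside the gene's span, which begins at 19479466, so the start site used for it is not the first base of that span. NDC80 (chr18:2571307-2571606, plus strand) and CLSPN (chr1:35769929-35770228, minus strand) were added after their values were seen, as examples of a CHR and an E2F match.
SPC24: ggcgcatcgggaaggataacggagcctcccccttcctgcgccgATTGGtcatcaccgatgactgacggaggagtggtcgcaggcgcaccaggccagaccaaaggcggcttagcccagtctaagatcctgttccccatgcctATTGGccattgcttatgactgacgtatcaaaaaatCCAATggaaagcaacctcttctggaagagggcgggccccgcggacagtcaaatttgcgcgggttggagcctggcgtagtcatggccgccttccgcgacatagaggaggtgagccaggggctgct
CDC45: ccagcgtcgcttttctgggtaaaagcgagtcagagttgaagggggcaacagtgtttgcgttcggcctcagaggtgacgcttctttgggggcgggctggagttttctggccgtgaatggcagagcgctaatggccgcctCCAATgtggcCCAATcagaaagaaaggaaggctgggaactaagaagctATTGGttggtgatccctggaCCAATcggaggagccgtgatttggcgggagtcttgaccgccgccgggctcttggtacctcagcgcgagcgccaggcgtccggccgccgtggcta
NDC80: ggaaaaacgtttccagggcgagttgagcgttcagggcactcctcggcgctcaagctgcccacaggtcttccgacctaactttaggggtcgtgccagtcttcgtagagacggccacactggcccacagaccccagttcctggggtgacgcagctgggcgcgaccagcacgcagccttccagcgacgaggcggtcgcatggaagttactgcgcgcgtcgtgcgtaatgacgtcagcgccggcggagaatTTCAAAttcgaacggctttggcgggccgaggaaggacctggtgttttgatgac
CLSPN: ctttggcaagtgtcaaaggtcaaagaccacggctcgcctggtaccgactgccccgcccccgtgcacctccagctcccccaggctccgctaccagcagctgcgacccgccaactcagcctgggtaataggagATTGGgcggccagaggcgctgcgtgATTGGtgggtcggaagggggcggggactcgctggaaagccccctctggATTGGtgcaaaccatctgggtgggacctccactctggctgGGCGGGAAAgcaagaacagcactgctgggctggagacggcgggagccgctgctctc
SPC24 holds 3 CCAAT matches, CDC45 holds 4, and neither holds a match to the other motifs. In NDC80 the only match is TTTGAA on the opposite strand, 3 bases before the start site. In CLSPN the overlapping TTTCCCGC and TTCCCGCC, both on the opposite strand, lie 5 and 6 bases before the start site, along with 3 CCAAT matches. TTTGAA occurred in 75% of the 36 spindle and kinetochore promoters and in 52.4% of the 21 promoters of mitotic kinases and cyclins with a sequence. It occurred in 5.88% of 17 licensing and 3.57% of 28 fork promoters, in 15.4% of all 27305 promoters of this length and in 9.35% of the 9936 promoters of genes tested. The E2F motifs ran the other way: at least 1 was found in 47.1% of licensing and 46.4% of fork promoters, in 19.4% of spindle and 4.76% of kinase promoters, and in 4.61% of all promoters (7.62% of genes tested). CCAAT was found in 70.6%, 42.9%, 72.2% and 71.4% of licensing, fork, spindle and kinase promoters, against 35.7% of all and 36.8% of those tested. These matches describe the letters in the windows and not bound sites.

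Among 18 genes that license and fire replication origins, 5 were higher and 0 lower, with 17 above 0 and a median of 0.27. CDC45 (ENSG00000093009, chromosome 22, 19479466 to 19520612), which joins the MCM ring to form the active helicase, stood at 22.2 and 35.7 CPM in tumor 1 and at 29.7 and 40.0 in tumor 2. Rich spots were higher without overlap, 1.48-fold (log2 0.57 ± 0.11, SE, n = 2, edgeR adjusted p = 4.32e-05). CLSPN (ENSG00000092853), the adaptor that passes replication stress to the checkpoint, went from 36.2 to 52.7 CPM and from 38.9 to 52.8 (log2 0.50, edgeR adjusted p = 1.35e-05). MCM10, GMNN (geminin, which blocks relicensing) and CDC6 were called too, with 0.39, 0.31 and 0.26. With matched surroundings the median was 0.23 and 0 of the 18 passed (edgeR, 2 higher at an unadjusted p under 0.05), where CDC45 had 0.48 and CLSPN 0.25.

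At the replication fork, 15 of 33 genes were higher and 0 lower, with a median of 0.26 (0.31 and 0.18 by tumor). POLD3 (ENSG00000077514, chromosome 11, 74592582 to 74669341), an accessory subunit of DNA polymerase delta, stood at 16.5 and 25.9 CPM in tumor 1 and at 13.6 and 24.8 in tumor 2. Its rich spots were 1.66-fold higher without overlap (log2 0.74 ± 0.14, SE, n = 2, edgeR adjusted p = 2.34e-05). Among called genes with at least 20 CPM it had the largest log2 difference upward. It is also the single fork gene called with matched surroundings (log2 0.97, edgeR adjusted p = 0.0305), where the list's median was 0.17, and did not pass in the reduced match (0.85, edgeR adjusted p = 0.0799, 0 of 33 called). POLA1, the catalytic subunit of polymerase alpha, had 0.46. UHRF1 and DNMT1, which copy DNA methylation onto the new strand, had 0.40 and 0.20. FEN1 and LIG1, which finish the lagging strand, had 0.31 and 0.34, and the nucleotide enzymes DTYMK, TK1, RRM1 and DUT had between 0.27 and 0.31.

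Mitotic kinases, cyclins and regulators of the anaphase-promoting complex moved likewise: 16 of 28 were higher, 0 lower, and the median was 0.27. AURKA, the kinase of the spindle poles, stood at 90.9 and 122 CPM in tumor 1 and at 108 and 141 in tumor 2, without overlap (log2 0.41 ± 0.06, SE, n = 2, edgeR adjusted p = 9.60e-09). CCNF (cyclin F), PLK1, BUB1B, CCNA2 (cyclin A) and FOXM1, a transcription factor of G2 genes, were higher by log2 0.43, 0.41, 0.38, 0.36 and 0.33. With matched surroundings the median was again 0.27, and 0 of 28 passed (edgeR, 13 higher and 0 lower at an unadjusted p under 0.05). AURKA alone passed in the reduced match (0.44).

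Condensins, cohesins, tubulins and chromatin proteins of dividing cells had 21 of 27 genes higher and 0 lower, the highest share of upward calls among the lists, with all 27 above 0 and a median of 0.26. EZH2, the methyltransferase of Polycomb complex PRC2, went from 37.1 to 53.9 CPM and from 40.5 to 54.8 (log2 0.50, edgeR adjusted p = 1.00e-05). NCAPH, a condensin subunit, had 0.47 and TMPO, a protein of the nuclear lamina, 0.42. TUBA1B, an abundant alpha tubulin, went from 956 to 1186 CPM and from 1192 to 1449, higher in each tumor although the zones overlap between tumors (log2 0.30, edgeR adjusted p = 7.51e-16). Tubulin genes are close in sequence, so the split of reads among them is uncertain. With matched surroundings TMPO, HMGB2, a DNA-bending protein, and TUBA1B passed, 3 of 27, and the median was 0.24. HMGN2 and TUBA1C passed too in the reduced match.

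Regulators of the G1 to S step were mixed in size. Of 19 genes, 6 were higher and 0 lower, with a median of 0.22. CCNE1 (cyclin E) had a log2 difference of 0.51 (edgeR adjusted p = 0.0194), CCND1 (cyclin D1) 0.21 and its partner CDK4 0.17. RB1, which restrains E2F, was higher as well (0.34). E2F8, a repressor of E2F targets, had the largest value of the list, 0.62, but did not pass (edgeR adjusted p = 0.0702). In homologous recombination and replication stress, 4 of 25 genes were higher and 0 lower (median 0.22). EXO1, an exonuclease of mismatch repair and end resection, went from 25.2 to 32.7 CPM and from 19.9 to 34.8 (log2 0.54, edgeR adjusted p = 0.000298). FANCI and PARP1 had 0.29 and 0.27, and XRCC2, which acts in homologous recombination, had 0.54 without passing (edgeR adjusted p = 0.0504). With matched surroundings 0 genes of either list passed (edgeR, 1 and 5 higher at an unadjusted p under 0.05), and the medians were 0.17 and 0.18.

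CDK inhibitors and p53 targets linked to quiescence had calls in both directions. Of 17 genes, 1 was higher (5.88%) and 2 were lower (11.8%), against 3.06% and 3.49% of all genes tested. The median was -0.10, and 6 of the 17 were above 0. CDKN1A (p21) had 0.01 and CDKN1B (p27) -0.10, neither called. TXNIP, which curbs glucose uptake and binds thioredoxin, stood at 196 CPM in poor and 126 in rich spots of tumor 1 and at 181 and 116 in tumor 2. The zones did not overlap, and rich spots were 1.56-fold lower (log2 -0.64 ± 0.06, SE, n = 2, edgeR adjusted p = 3.13e-26). TXNIP was lower with matched surroundings as well (log2 -0.39, edgeR adjusted p = 0.0315). BTG1, an antiproliferative gene, was lower by -0.20. CDKN2C (p18), an inhibitor of CDK4 and CDK6, was higher in rich spots, 24.5 and 28.6 CPM in tumor 1 and 20.1 and 34.1 in tumor 2 (log2 0.44, edgeR adjusted p = 0.00838).

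Other genes of cell growth moved little. MYC itself had -0.06 and was not called (edgeR adjusted p = 0.816). Of 31 MYC and ribosome biogenesis genes, 4 were higher and 0 lower (median 0.09): RRP1B, SRM, NOP56 and NCL, with 0.30, 0.21, 0.20 and 0.19. Of 23 genes of nucleotide and one-carbon synthesis, 4 were higher (GMPS, MTHFD1, ADSL and PAICS, from 0.14 to 0.22) and 0 lower, and of 21 cholesterol synthesis genes 4 were higher (among them LSS, FDFT1 and FDPS, from 0.19 to 0.28) and 0 lower. With matched surroundings 0 genes of these 3 lists passed (edgeR, 3, 0 and 2 higher at an unadjusted p under 0.05), and the medians were 0.05, 0.00 and 0.13. Cytosolic ribosomal proteins went the other way, with 19 of 34 lower and 0 higher. The median was small, -0.10, and 9 of 34 passed with library size alone. With matched surroundings 1 of 34 was lower, RPL11 (-0.22), and the median was -0.06. RPS18 stood at 5925 and 5095 CPM in tumor 1 and at 5035 and 4477 in tumor 2, so that the zones overlap between tumors although rich spots are lower in each (log2 -0.19, edgeR adjusted p = 7.95e-11). Ribosomal protein genes have many near-identical pseudogenes, which makes their counts uncertain. Of 33 nuclear genes of the respiratory chain 0 were called in edgeR or DESeq2 (4 higher and 1 lower at an unadjusted p under 0.05 in edgeR), with a median of 0.04, and 1 was called higher with library size alone. With matched surroundings 0 passed (edgeR, 2 higher and 1 lower at an unadjusted p under 0.05). Of the 13 genes of the mitochondrial genome, 1, MT-CO2, was lower (-0.12), a share of 7.69% against 3.49% of all genes tested. With matched surroundings MT-CO1 was the single gene called and was higher (0.21, against -0.03 unmatched). It did not pass in the reduced match (0.13, edgeR adjusted p = 0.0901).

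**Figure D3:**
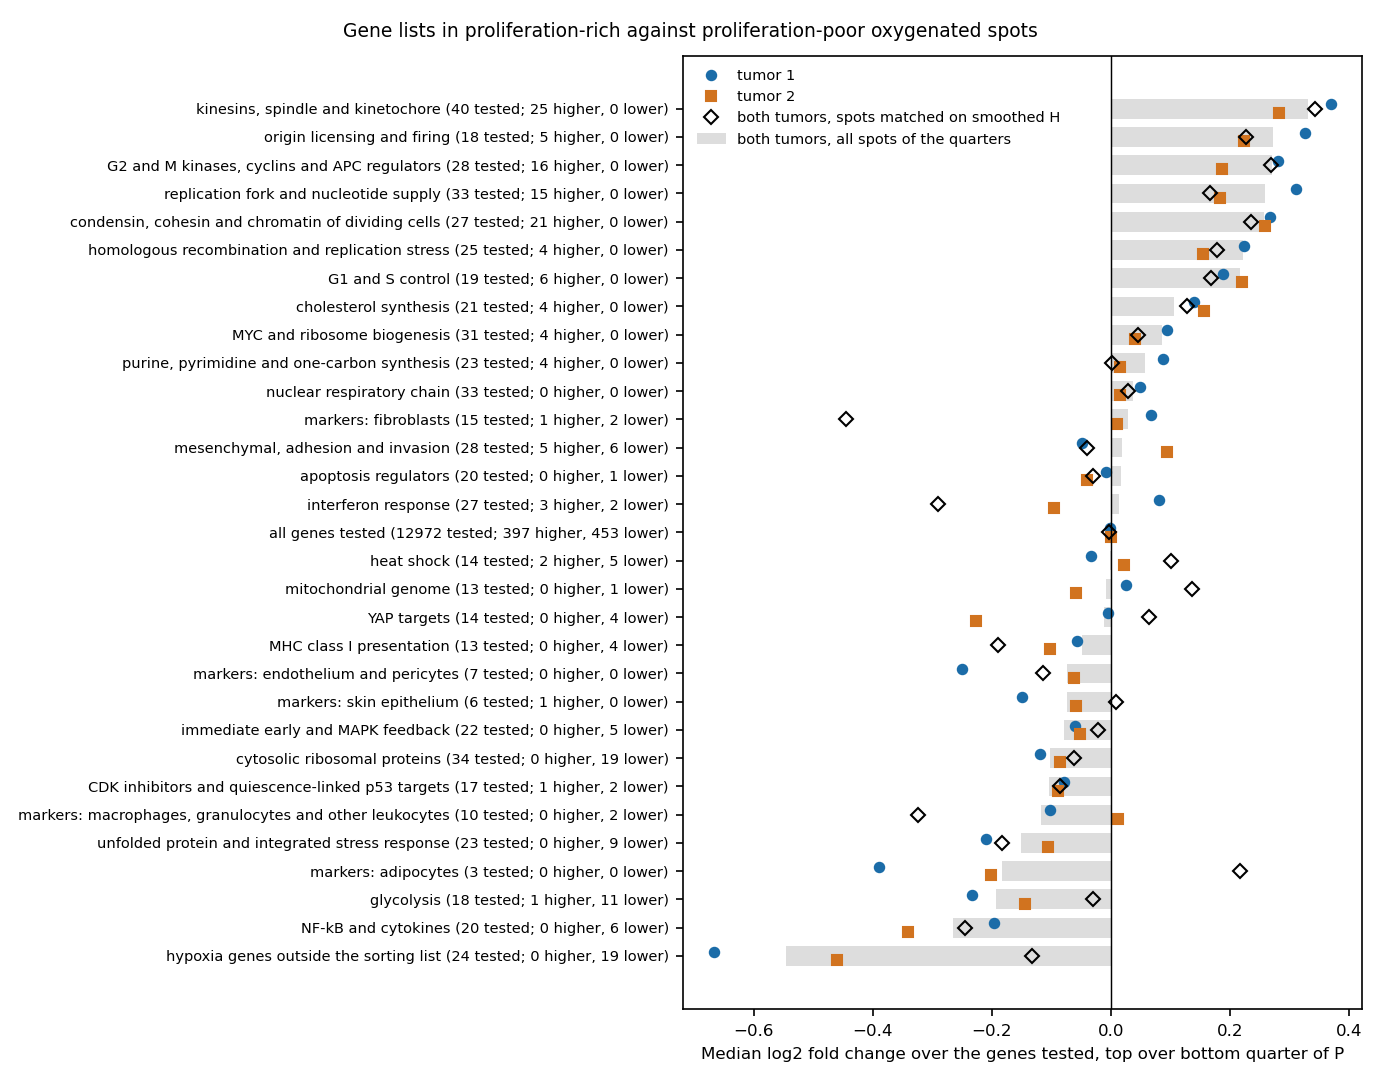
Median log2 difference of rich over poor oxygenated spots for each gene list: bars for both tumors together, points for each tumor, diamonds with rich and poor spots matched on the hypoxia sum of their surroundings. Cell-cycle lists lie between 0.22 and 0.33 with matched values between 0.17 and 0.34, and the hypoxia list moves from -0.55 to -0.13 when matched.

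Among the lists other than markers of other cells, the lowest median belonged to hypoxia-induced genes that had no part in choosing the spots. Of 24 tested, 19 were lower in rich spots and 0 higher, with a median of -0.55 (-0.67 in tumor 1, -0.46 in tumor 2). The list is close to the hypoxia sum that defined the oxygenated spots, and that sum itself differed between the zones. SLC2A3, a glucose transporter, stood at 82.5 and 38.0 CPM in tumor 1 and at 62.3 and 29.2 in tumor 2, 2.15-fold lower without overlap (log2 -1.11 ± 0.09, SE, n = 2, edgeR adjusted p = 6.69e-32). LOX (ENSG00000113083, chromosome 5, 122063195 to 122078259), the enzyme that crosslinks collagen, went from 65.2 to 31.7 CPM and from 35.2 to 16.7, 2.07-fold lower (log2 -1.05 ± 0.11, edgeR adjusted p = 1.17e-20). ANGPTL4, an inhibitor of lipoprotein lipase, went from 79.8 to 38.8 CPM and from 50.5 to 33.5 (log2 -0.88). DEPP1, STC1 and VEGFA, the vessel growth factor, had -1.05, -0.73 and -0.50. With matched surroundings the median was -0.13 and 1 of 24 passed, LOX (-0.81, edgeR adjusted p = 0.0103). In the reduced match LOX had -0.62 (edgeR adjusted p = 0.117), the median was -0.06 and 0 of 24 passed. SLC2A3 and ANGPTL4 had -0.49 each with matched surroundings and -0.37 and -0.43 in the reduced match, and passed in neither.

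Glycolysis genes were lower to a lesser degree, 11 of 18 lower and 1 higher, with a median of -0.19. PGK1, phosphoglycerate kinase, stood at 1014 and 695 CPM in tumor 1 and at 833 and 662 in tumor 2, without overlap (log2 -0.44 ± 0.04, SE, n = 2, edgeR adjusted p = 4.42e-30). ALDOC and HK2 (hexokinase 2) had -0.90 and -0.52. LDHB, the lactate dehydrogenase subunit that is not hypoxia-induced, was the single gene higher (0.15), and LDHA was lower (-0.23). With matched surroundings 0 of 18 passed (edgeR, 2 higher and 1 lower at an unadjusted p under 0.05), the median was -0.03, and HK2 turned to 0.18.

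Among stress genes, the inducible HSP70 genes fell most. HSPA6, which is transcribed almost only under stress, stood at 35.2 and 5.81 CPM in tumor 1 and at 12.7 and 5.55 in tumor 2, 4.48-fold lower without overlap (log2 -2.16 ± 0.18, SE, n = 2, edgeR adjusted p = 4.47e-29). HSPA1A went from 99.3 to 40.4 CPM and from 68.2 to 33.9 (log2 -1.19), and HSPA1B from 190 to 86.2 and from 133 to 85.0 (log2 -0.94). HSPA1A and HSPA1B are near-identical copies, so the split of reads between them is uncertain. HSPA8, the constitutive member, went the other way, from 1878 to 2207 CPM and from 1917 to 2276, without overlap (log2 0.24, edgeR adjusted p = 1.45e-12). Of 14 heat shock genes, 5 were lower and 2 higher, with a median of -0.00. With matched surroundings HSPA1B was still lower (-0.52, edgeR adjusted p = 0.0103), while HSPA6 (-1.21) and HSPA1A (-0.60) did not pass. CRYAB, a small heat shock protein, was also lower there (-1.58), and HSP90AB1 higher (0.23). In the reduced match CRYAB had 0.48 and did not pass, and HSPA6 passed (-1.45).

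Genes of the endoplasmic reticulum stress response and of the integrated stress response were lower in 9 of 23 cases and higher in 0 (median -0.15). HSPA5 (BiP), the main chaperone of the endoplasmic reticulum, stood at 503 and 367 CPM in tumor 1 and at 431 and 351 in tumor 2, without overlap (log2 -0.38 ± 0.04, SE, n = 2, edgeR adjusted p = 4.46e-16). It kept its call with matched surroundings (log2 -0.41), where the median of the list was -0.18. DDIT3 (CHOP) and DNAJB9 had -0.53 and -0.61, and VLDLR -0.91, which turned to 0.26 when matched. Immediate early genes had 5 of 22 lower and 0 higher, among them FOS (-0.85), KLF4 (-0.58) and DUSP1 (-0.50), and 0 passed when matched (edgeR, 1 higher and 4 lower at an unadjusted p under 0.05).

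Of 20 NF-kB and cytokine genes, 6 were lower and 0 higher (median -0.27). SAA1, an acute phase protein, went from 16.2 to 9.203 CPM and from 33.7 to 8.15 (log2 -1.39, edgeR adjusted p = 3.04e-14). CXCL8, the neutrophil chemokine interleukin-8, went from 40.6 to 21.2 CPM and from 28.2 to 17.6 (log2 -0.84). PTGS2 (cyclooxygenase 2), with under 7 CPM in each sum, had -0.996 and turned to 0.22 when matched. SAA1 (-1.56) and CXCL8 (-0.86) passed with matched surroundings. In the reduced match SAA1 had -0.93 and did not pass (edgeR adjusted p = 0.193), whereas CXCL8 (-1.13) and TNFAIP3 (-1.50) passed. Of 27 interferon response genes, 3 were higher (IFI44, OASL and IFIT1, with 0.35, 0.33 and 0.28) and 2 lower (BST2 and IFITM3, with -0.30 and -0.28). These shares are 11.1% and 7.41%, against 3.06% and 3.49% of all genes tested. With matched surroundings IFI44, OASL and IFIT1 did not pass and the list's median moved from 0.01 to -0.29, with 0 of 27 higher and 3 lower, IFI27 (-0.51), IFI6 (-0.48) and IFITM3 (-0.28). IFI6 did not pass in the reduced match (-0.34, edgeR adjusted p = 0.156) and BST2 did (-0.54). Of 13 genes of MHC class I presentation 4 were lower, among them HLA-B, HLA-C and HLA-E with -0.37, -0.17 and -0.24. With matched surroundings 2 of the 13 were lower, HLA-B (-0.35) among them. HLA genes share much sequence, so their counts are uncertain.

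Mesenchymal, adhesion and invasion genes split, with 5 of 28 higher and 6 lower. CDH11 (ENSG00000140937, chromosome 16, 64943753 to 65123744), a mesenchymal cadherin, stood at 31.9 and 51.6 CPM in tumor 1 and at 38.3 and 59.2 in tumor 2, 1.59-fold higher without overlap (log2 0.67 ± 0.10, SE, n = 2, edgeR adjusted p = 8.03e-10). MMP14, a membrane-bound matrix protease, was higher by 0.50 and PLAU (urokinase) by 0.24, whereas MMP1 (interstitial collagenase) was lower by -0.52. With matched surroundings 0 of the 26 still tested passed (edgeR, 3 higher and 5 lower at an unadjusted p under 0.05), and CDH11 had 0.26. MMP1 passed in the reduced match (-0.62). Of 14 YAP targets, 4 were lower, among them F3 (tissue factor, -0.39) and ANKRD1 (-0.24), and 0 higher. In the apoptosis list 1 of 20 was lower, the inflammatory caspase CASP4 (-0.35), a share of 5% near the 3.49% of all genes tested. With matched surroundings 0 genes of both lists passed (edgeR, 1 YAP target higher and 1 apoptosis gene lower at an unadjusted p under 0.05).

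The remaining genes with large differences belonged to no list. OIP5, which helps to load the centromeric histone, went from 15.9 to 28.5 CPM and from 23.4 to 26.7 (log2 0.55). CHAC2, a glutathione-degrading enzyme, and STIL, which acts in centriole duplication, had 0.52 each. The long noncoding RNA MANCR went from 38.0 to 51.0 CPM and from 34.5 to 53.7 (log2 0.51, edgeR adjusted p = 9.46e-06). UCA1, also a long noncoding RNA, was lower, from 77.9 to 40.9 CPM and from 68.9 to 32.0 (log2 -0.99, edgeR adjusted p = 1.01e-26), and C5orf46 had -0.98. MTRNR2L6, which resembles the mitochondrial ribosomal RNA gene, was lower mainly in tumor 2 (60.1 against 17.4 CPM, and 15.5 against 13.3 in tumor 1). It had -0.08 without the 10% of spots richest in markers of other cells.

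Markers of other cells were counted in the same sums. Fibroblast markers held 1301 and 1239 CPM (unscaled) in poor and rich spots of tumor 1 and 1746 and 1710 in tumor 2, with all 17 genes detected. Endothelial and pericyte markers held 151 and 145, then 157 and 142, with EMCN and PLVAP at 0 UMIs in every sum. Leukocyte markers held 345 and 288, then 337 and 287, with NKG7 and S100A8 at 0. Red blood cell markers held 47.6 and 33.0, then 66.8 and 18.6. Muscle markers were near 0 in tumor 1 (13.9 and 16.2) and held 811 and 179 CPM in tumor 2. Adipocyte markers held at most 13.04 CPM in any sum, and skin markers lay between 578 and 602, with KRT1, LOR and TP63 at 0.

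With matched surroundings 9 of 9 muscle genes still tested were lower (median -3.79), as were COL3A1 (-0.87), ACTA2 (-0.52) and APOE (-0.80), and none of these was called in the reduced match, which still tested 2 of the muscle genes. COL1A1 (0.26) and COL1A2 (0.36) were higher there. All of these genes are among the markers by which the reduced match left out spots, so part of their change is built into that choice. Of the marker genes tested in the full comparison, 12 of 13 muscle genes, 2 of 10 leukocyte genes (CD68 and APOE) and the single red blood cell gene, HBB, were lower in rich spots, and none of these was higher. Among fibroblast genes 1 of 15 was higher (COL1A1, 0.15) and 2 were lower (COL3A1 and TAGLN), and 1 of 6 skin genes was higher (SFN, 0.24). Of 7 endothelial and 3 adipocyte genes 0 were called in edgeR or DESeq2 (2 lower and 0 either way at an unadjusted p under 0.05 in edgeR). CKM, the muscle creatine kinase, stood at 70.2 CPM in poor and 9.63 in rich spots of tumor 2 and at 0.420 and 0.121 in tumor 1, so its call rests on tumor 2. TNNT3, a fast muscle troponin, was alike (70.6 and 12.2 CPM in tumor 2). HBB had -0.55 in tumor 1 and -1.86 in tumor 2. Without the 10% of spots richest in other-cell markers, CKM and TNNT3 turned to 0.17 and 0.41 and were not called. APOE (-0.21, edgeR adjusted p = 0.293) and HBB (-0.48, edgeR adjusted p = 0.129) were not called there either. COL3A1, a fibroblast collagen, stood at 356 and 242 CPM in tumor 1 and at 537 and 372 in tumor 2, overlapping between tumors (log2 -0.54, edgeR adjusted p = 9.13e-31). Without those marker-rich spots it turned to 0.48 (edgeR adjusted p = 1.02e-06). CKM, TNNT3, APOE, HBB and COL3A1 are themselves among the markers by which those spots were left out. Part of their change is thus built into that choice. In that reduced comparison 238 genes (1.84% of 12929) were higher and 253 (1.96%) lower, 218 and 246 of them shared with the full one. The spindle list then had 20 of 40 genes higher, the chromatin list 17 of 27, the fork list 9 of 33 and the kinase list 11 of 28, and the hypoxia list 19 of 24 lower. The part of other cells in the remaining results was not tested.

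Across the whole range of oxygenated spots the lists changed by steps. Oxygenated spots were cut into 4 equal groups by proliferation sum, and the CPM (unscaled) of each list were added up. Spindle genes rose from 1586 over 1800 and 1889 to 2087 CPM in tumor 1, and from 1838 over 2017 and 2091 to 2205 in tumor 2, with the highest group at 1.32 and 1.20 times the lowest. Chromatin genes ended at 1.22 and 1.17 times the lowest group, and licensing genes at 1.26 and 1.17. Both increased at each step in both tumors. Hypoxia genes outside the sum dropped at each step, from 1493 to 1032 CPM and from 1280 to 987. Ribosomal protein genes dropped at each step too, to 0.942 and 0.949 times the lowest group. The list of CDK inhibitors and p53 targets, TXNIP included, dropped at each step as well, from 758 to 649 CPM and from 760 to 687. The hypoxic spots continued these directions: spindle genes were at 1454 CPM in tumor 1 and 1502 in tumor 2, below every oxygenated group, and hypoxia genes at 2704 and 2341. These levels are a description without a test.

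**Figure D4:**
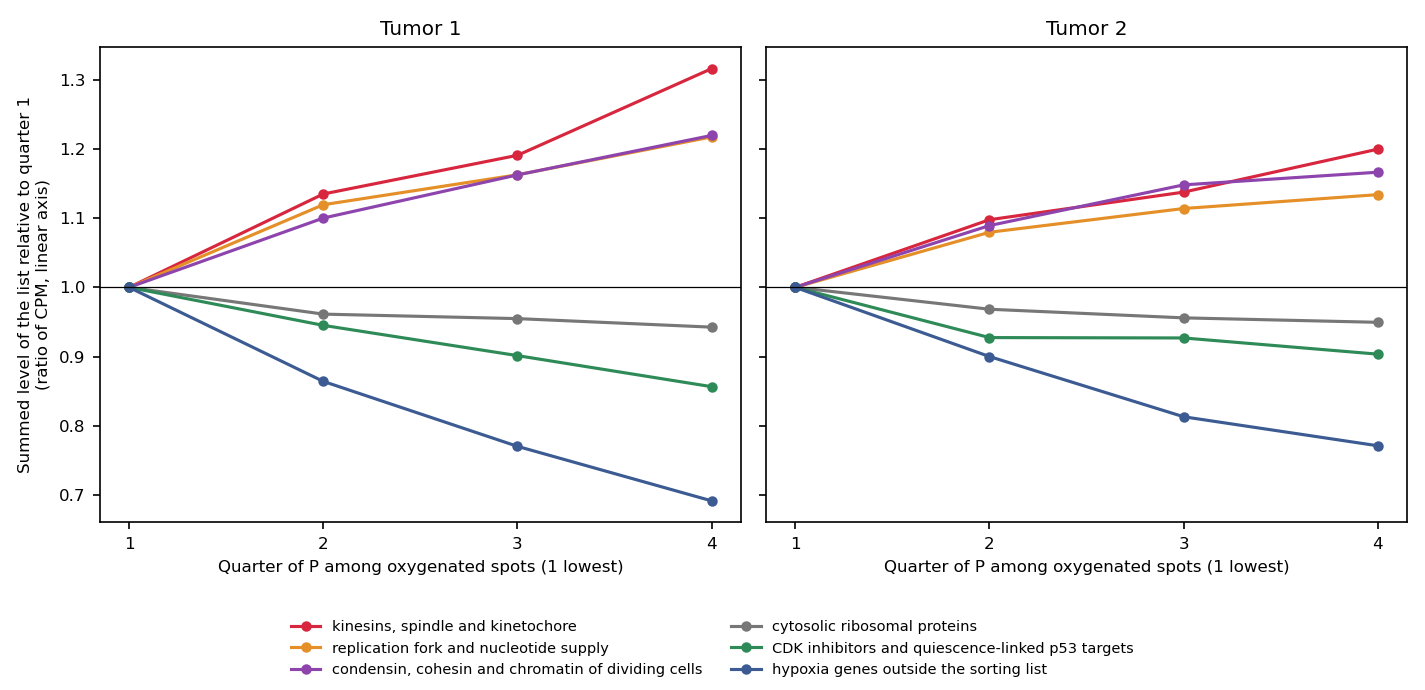
Summed CPM of 6 gene lists in 4 equal groups of oxygenated spots ordered by proliferation sum (P), relative to the lowest group, with a line for each tumor. Spindle genes reach 1.32 (tumor 1) and 1.20 (tumor 2) and hypoxia genes outside the sum fall to 0.691 and 0.771.

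The same contrast was also drawn among hypoxic spots, to ask whether it differs from the oxygenated one. The 25% of hypoxic spots with the highest proliferation sum were set against the 25% with the lowest, with 279 spots each in tumor 1 and 245 in tumor 2. Here too the zones differed in hypoxia: the mean hypoxia sum was 33.6 per 10000 in poor and 22.6 in rich spots of tumor 1, and 28.8 and 19.2 in tumor 2. In tumor 2 they differed in depth as well, with medians of 13710 and 21991 UMIs. The split in proliferation was wider than among oxygenated spots. The mean proliferation sum of the hypoxic spots themselves was 14.8 in poor and 24.1 in rich spots of tumor 1, and 12.8 and 25.8 in tumor 2. Among oxygenated spots it was 20.6 and 28.4, then 23.8 and 31.5. The difference between both contrasts (oxygenated minus hypoxic) was tested in 1 edgeR model over 8 sums. Of 13051 genes, 55 (0.421%) had a difference above 0 and 32 (0.245%) below 0, 0.667% in all. With DESeq2 only 1 gene was called, HSPH1, and without the tumor block 0 (edgeR, 538 at an unadjusted p under 0.05). With library size alone, 107 were called.

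In the licensing, fork, kinase, spindle, chromatin and recombination lists 0 genes passed this test in edgeR or DESeq2, which does not show that they respond alike. At an unadjusted p under 0.05 in edgeR, 15 of 40 spindle, 13 of 28 kinase and 12 of 33 fork genes had a difference below 0, and 0 above it. The spindle list's median was 0.37 and 0.28 (tumor 1, tumor 2) among oxygenated spots and 0.48 and 0.75 among hypoxic spots. Since the hypoxic zones lay further apart in the proliferation sum, larger values there need not mean a stronger response, and this was not tested. MYBL2, a transcription factor of the MuvB complex, was called: 0.14 and 0.23 among oxygenated and 0.79 and 0.92 among hypoxic spots (edgeR adjusted p = 0.0332). CDKN2C had 0.22 and 0.75 among oxygenated spots against -0.21 and -0.68 among hypoxic ones (difference 0.86 ± 0.20, SE, n = 2, edgeR adjusted p = 0.0332). TXNIP had -0.64 and -0.65 among oxygenated spots and -0.16 and -0.03 among hypoxic ones (difference -0.55 ± 0.10, edgeR adjusted p = 0.00413).

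Heat shock genes were the list with the most calls, 7 of 14, all with a difference above 0. HSPH1, the large HSP110 chaperone, stood at 151 and 147 CPM in poor and rich oxygenated spots of tumor 1 and at 145 and 145 in tumor 2. Among hypoxic spots it stood at 237 and 142, then 349 and 159. Rich and poor spots thus stood apart on the hypoxic side and within a few CPM of each other on the oxygenated side (difference 0.91 ± 0.11, SE, n = 2, edgeR adjusted p = 1.21e-05). DNAJB1, an HSP40 partner of HSP70, was lower on both sides, by -0.75 and -0.30 among oxygenated and by -1.24 and -1.64 among hypoxic spots (edgeR adjusted p = 5.53e-05). HSPB1, HSPA1A, HSPA1B, HSP90AA1 and BAG3 were the other 5. CCL26, a chemokine, was lower on both sides and more so among hypoxic spots (-1.46 and -1.14 against -2.002 and -2.84).

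Mitochondrially encoded genes differed in the opposite direction, 4 of 13 with a difference below 0. MT-CO3, a subunit of cytochrome oxidase, had 0.03 and -0.02 among oxygenated spots and 0.47 and 0.46 among hypoxic spots (difference -0.47 ± 0.10, SE, n = 2, edgeR adjusted p = 0.0130). MT-CO1, MT-CO2 and MT-CYB were the others. Among cytokines, CXCL8 had -0.92 and -0.67 among oxygenated and 0.04 and -0.18 among hypoxic spots, and SAA1 -0.79 and -2.003 against 0.04 and 1.37. Of 34 ribosomal protein genes, RPL13, RPL14 and RPL32 had a difference above 0, and 33 did at an unadjusted p under 0.05. COL3A1, COL1A1, HBB and ACTA1, markers of fibroblasts, blood and muscle, also differed. Other-cell markers held 0.251% and 0.266% of UMIs in poor and rich hypoxic spots of tumor 1 and 0.170% and 0.266% in tumor 2, the reverse order of the oxygenated zones, and their part in these differences was not tested.

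**Figure D5:**
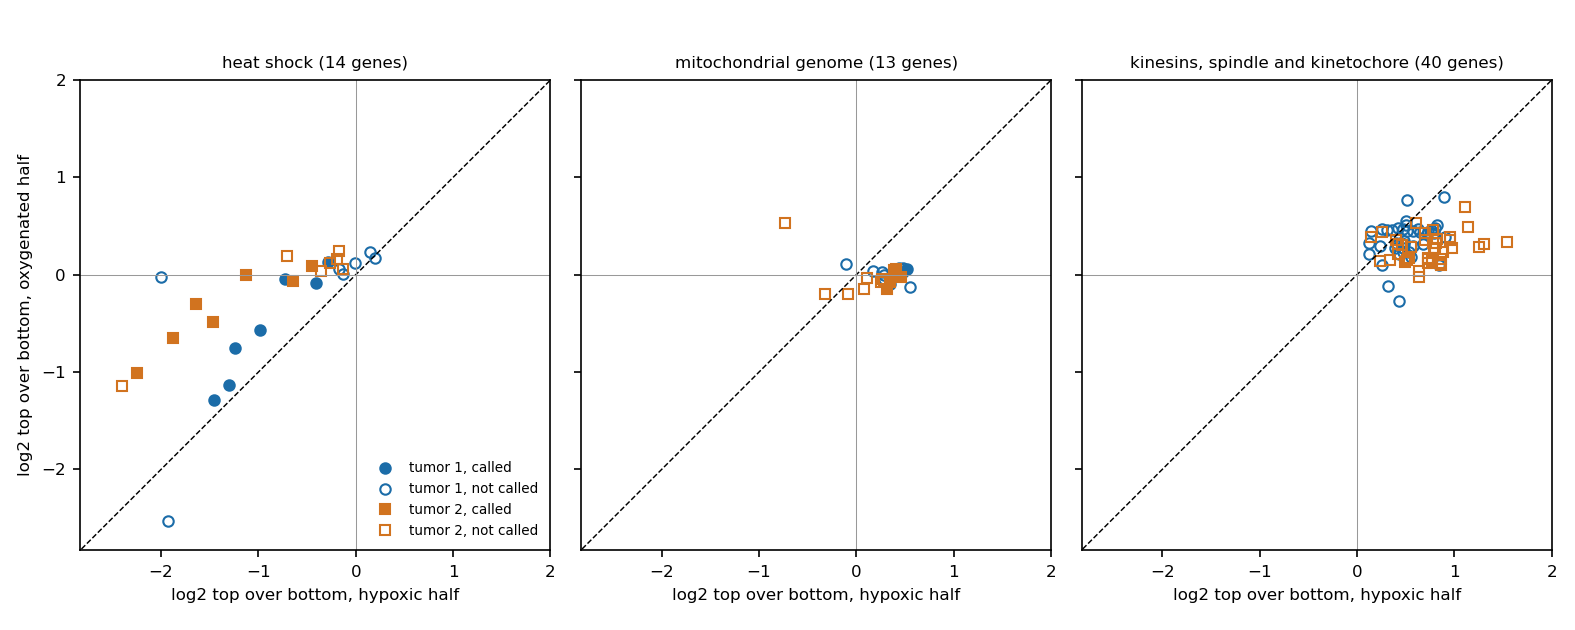
Log2 difference of proliferation-rich over proliferation-poor spots among hypoxic spots (horizontal axis) and among oxygenated spots (vertical axis) for heat shock, mitochondrial genome and spindle genes, with a circle for tumor 1 and a square for tumor 2. Filled points are genes called in the interaction and the dashed line marks equal values: HSPH1 and DNAJB1 lie above the line and MT-CO3 below it.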

How the data were processed

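Human Visium sections were read as deposited count matrices: UMI counts per gene and spot, which the authors made with Space Ranger (version 1.3.0 per the file headers). The submitters' processing notes name the build hg38. Barcodes over tissue were kept. UMI counts of the chosen spots were summed per tumor and zone, and sums were tested with edgeR 4.0.16 (TMM, filterByExpr, quasi-likelihood test, tumor as block, R 4.3.3). The tumor block is the pairing of zones cut from 1 section. The 22 genes of both sums were left out of tests. DESeq2 1.42.0 served as an alternative. Per-tumor log2 values use a prior count of 2, and standard errors come from the log2 difference and the F statistic. Intervals and tests cover these 2 sections only. In the comparison of oxygenated spots their spread comes from the trend over all genes and not from each gene's own 2 values. A standard error can therefore be smaller than the gap between the tumors. HSPA6, for example, had -2.54 in tumor 1 and -1.15 in tumor 2 with a standard error of 0.18.

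Members, rules and gene lists were chosen with earlier results of these data known. Named genes were, among called genes of the same sign in both tumors with at least 20 CPM, the 12 highest and 12 lowest, the 2 list members furthest from 0 in each list, and the 5 highest and 5 lowest called interaction genes (at least 20 CPM). Other list members were named as examples after their values were seen. Gene positions and promoters come from RefSeq GRCh38.p14, which held 707 of the 719 genes named or listed. The fit of rich against poor oxygenated spots was tested on simulated counts of 12806 genes. It recovered 59% of genes changed by log2 0.5 and 82% of those changed by log2 1, with 8 false calls. The counts were drawn with the spread that edgeR had estimated from the real sums. The number of false calls therefore cannot show how many of the real calls are false. Spots are regions, so no doublet caller was run. Alternatives varied scaling, filters, depth, the definition of both sums, matching of spots and the border. Some list members are counted but not reported by name here.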

Additional observations from a re-analysis of the deposited data

Results flagged for a closer look

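The contrast of proliferation-rich over proliferation-poor spots differed between oxygenated and hypoxic tissue in 55 genes with a difference above 0 and 32 below 0 (edgeR, adjusted p under 0.05), as tested by the interaction itself. The genes with the lowest differences, oxygenated minus hypoxic, were ACTA1 (-3.61), COL3A1 (-1.43), HBB (-1.42), EFEMP2 (-1.21) and HPR (-1.04). ACTA1, a muscle actin, stood at 207 and 42.9 CPM in poor and rich oxygenated spots of tumor 2. In tumor 1 it stood at 1.48 and 1.52 CPM there, so the oxygenated side rests on tumor 2. It held no more than 6.06 CPM in any hypoxic sum. The genes with the highest differences were DAAM1 (0.82), CDKN2C (0.86), DNAJB1 (0.90), HSPH1 (0.91) and CCL26 (1.07). DAAM1, a formin, went from 129 to 67.7 CPM and from 116 to 51.8 among hypoxic spots, and from 68.6 to 50.9 and from 50.2 to 54.7 among oxygenated ones.

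Spots under 5000 UMIs, which entered no comparison, still held transcripts of the 16 proliferation genes, at 20.3 per 10000 UMIs in tumor 1 and 20.9 in tumor 2. The oxygenated poor spots had means of 20.6 and 23.8.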

How the results depend on the processing

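Of 55 named and called genes, 44 had the same sign in each of 26 settings in which they were tested, and 11 turned sign in at least 1. The number of calls varied more. Against 397 genes higher and 453 lower, DESeq2 gave 4 and 33, no replicate block 0 and 0, spots thinned to 5000 UMIs 38 and 146, spots matched on UMIs 209 and 242, on the hypoxia sum 27 and 98, the lowest 25% of the hypoxia sum 6 and 41, and spots without the 10% richest in other-cell markers 238 and 253. Ranking by the 9 replication genes gave 227 higher. Of 3 settings added after seeing the data, matching on the hypoxia sum of the surroundings gave 10 and 55, the same without marker-rich spots 22 and 34, and the same with neighbours' proliferation alone 6 and 25. The 87 interaction calls became 1 with DESeq2, 212 without a filter, 0 without the block, 13 when thinned and 39 with neighbours alone. The cause was not tested. Leaving out a tumor leaves no residual degree of freedom, so counts of calls could not be made then. Of 55 called genes named, 5 kept the call with DESeq2, 0 without the block, 22 when thinned and 12 with matched surroundings.

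These values turned sign, with matched surroundings: FLT1 0.067, HK2 0.18, OASL -0.062, PTGS2 0.22 and VLDLR 0.26; the same without marker-rich spots: F3 0.014, HK2 0.031, MT-ATP8 0.16, OASL -0.14 and VLDLR 0.043; the same with neighbours' proliferation alone: CSF1R -0.42, HK2 0.11, PTGS2 0.40, SPC24 -0.094 and VLDLR 0.43. Without marker-rich spots CKM had 0.17, COL3A1 0.48, FABP4 0.047 and TNNT3 0.41, all of them markers by which those spots were left out. Matched on UMIs, CKM had 0.12, COL3A1 0.071 and TNNT3 0.49, and on the hypoxia sum HK2 had 0.027 and MT-ATP8 0.099. COL3A1 had 0.16 with at least 10000 UMIs and 0.57 without spots within 2 steps of the border. CSF1R had -0.060 by the spot alone, -0.063 with at least 10000 UMIs and -0.23 by replication genes, by which MT-ND6 had -0.029. In the lowest 25% of the hypoxia sum AQP1 had 0.059 and PRPS1 -0.11. Thinned, CCNE1 had -0.0073 and NDUFA9 -0.0016. MYH4 had 0.47 in tumor 1 alone, near the floor (0 CPM in poor and 0.121 in rich spots). In tumor 2 alone it had -3.27 (54.5 and 5.37 CPM).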
